A study of Mus musculus with 36 samples.

Results

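Livers of mice without the lipase ATGL (adipose triglyceride lipase, gene Pnpla2) in their white fat, called AAKO, were compared between 6 fasted mice and 6 fed mice given CL316243, which activates the beta 3 adrenergic receptor. These 12 arrays, of 36 in the series, are those whose titles name the AAKO genotype with either the fast or the agonist, and each is a separate sample. The labels do not say more about how the samples of a group are related, so p-values measure the spread between these samples. The other 24 arrays are AAKO mice fed without the agonist and CTRL mice in the same 3 conditions, 6 to a group. All mice were males, described as C57Bl/6J. AAKO fasted mice had no food for 24 h and received no agonist. AAKO CL316243 mice were fed and received 3 mg/kg of the agonist by gavage, in 0.5% carboxymethyl cellulose, at Zeitgeber time 10 (hours after lights on). All mice were killed at Zeitgeber time 16, which is after dark. Both groups carry the same adipose deletion and belong to experiment 1, whereas the fed groups belong to experiment 2. The driver of the deletion, the ages, and any gavage of the fasted mice are not given in the sources used here, so fasting, feeding, agonist and gavage cannot be told apart in this contrast. The arrays read bulk liver RNA, in which fewer cells of a type and less RNA per cell cannot be told apart.

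As background, ATGL begins the breakdown of stored triglyceride in fat cells, and both a fast and a beta 3 agonist normally drive that breakdown and send fatty acids to the liver. A fast also lowers insulin and raises glucagon and glucocorticoids, to which the liver answers by making glucose, burning fatty acids and shutting down lipid synthesis. The nuclear receptor PPAR alpha, which binds fatty acids, carries much of the transcriptional response of the fasted liver to fat. The comparison asks how the liver transcriptome of a fasted mouse differs from that of an agonist-treated fed mouse when adipocytes lack this lipase.

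Values are log2 signal minus the log2 75th percentile of the array, so 0 is the brightness of that percentile, and a difference of 1 is 2-fold. Differences are AAKO fasted minus AAKO CL316243 with standard errors from a limma fit of all 36 arrays. A gene is called at a Benjamini-Hochberg adjusted p under 0.05, over 24096 genes. Between 33126 and 37200 probes were well above background in the fasted livers, and between 33865 and 36021 in the agonist livers. All 10 hepatocyte markers tested were above background in every array. Albumin (Alb) read 10.46 ± 0.07 in fasted and 10.67 ± 0.07 in agonist livers (SD, n = 6). That difference of -0.20 turned to 0.10, not called, after quantile normalization and in the authors' value table. The first principal component of the 12 arrays held 65.7% of the variance, with the fasted livers between -74.5 and -65.2 and the agonist livers between 56.9 and 78.7. Both groups were washed in 2 batches, which are a term of the fit. The liver signal of Pnpla2 was higher in fasted livers (7.12 to 7.48) than in agonist livers (4.87 to 5.97; 2.03 ± 0.19, adjusted p = 6.49e-11), and since the deletion is in fat it does not check the genotype.

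The 2 conditions differed across most of the liver transcriptome. Of 24096 genes, 14450 were called (60%), 6236 higher in the fasted livers (25.9%) and 8214 lower (34.1%). At least 2-fold differences were called for 4505 genes (18.7%), 2218 higher and 2287 lower, so the larger differences were split almost evenly. The 6 fasted and 6 agonist arrays did not overlap for 8978 genes (37.3%), with the fasted arrays higher for 16.2% and lower for 21% of all genes. Within wash batch 1 alone 11542 genes were called, and within wash batch 2 alone 10969. The median difference of all genes was -0.083 here, -0.136 after normexp background correction, and the authors' table gave 0.053. The share of calls that were higher in fasted livers moved with it, from 43.2% to 32.7% and 58%, so small shifts of whole gene families are read below only where they kept their direction.

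The largest differences reached about 7 log2 units on both sides. Rgs16, a regulator that shortens G protein signalling, had the highest. Its probe (mm9 chr1:155592497-155592556, the files do not say in which part of the gene) ran from 7.58 over a median of 7.94 to 8.22 in fasted livers and from -1.43 over 1.17 to 2.41 in agonist livers. All fasted livers were thus high and close together, while the agonist livers were low and scattered (7.18 ± 0.86, adjusted p = 1.39e-08). Cdkn1a, the cell cycle inhibitor p21, ran from 4.57 over 4.83 to 5.18 in fasted and from -2.59 over -1.78 to -1.10 in agonist livers (6.64 ± 0.40, adjusted p = 7.38e-15). The cytochromes Cyp2b10, a textbook target of the xenobiotic receptor CAR, and Cyp2b9 followed at 6.37 ± 0.58 and 6.44 ± 0.64. Cyp2b10 lay between 3.76 and 5.55 in fasted livers and between -3.31 and 0.99 in agonist livers. Rab30, a small GTPase of the Golgi, lay between 4.24 and 6.05 against -1.76 and -0.07 (6.07 ± 0.34). Fibin (5.60 ± 0.38) and the aldo-keto reductase Akr1b7 (5.09 ± 0.47) were also higher. The rule that picked the genes with the largest differences required that the arrays of the groups did not overlap. The fatty acid omega-hydroxylases Cyp4a31 and Cyp4a10 were both 33.2-fold higher in fasted livers. Cend1 was well above background on all 6 fasted arrays and on no agonist array, which gives at least 32.8-fold by the bound against background (the fitted 6.19 became 2.11 with normexp correction).

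**Figure D1:**
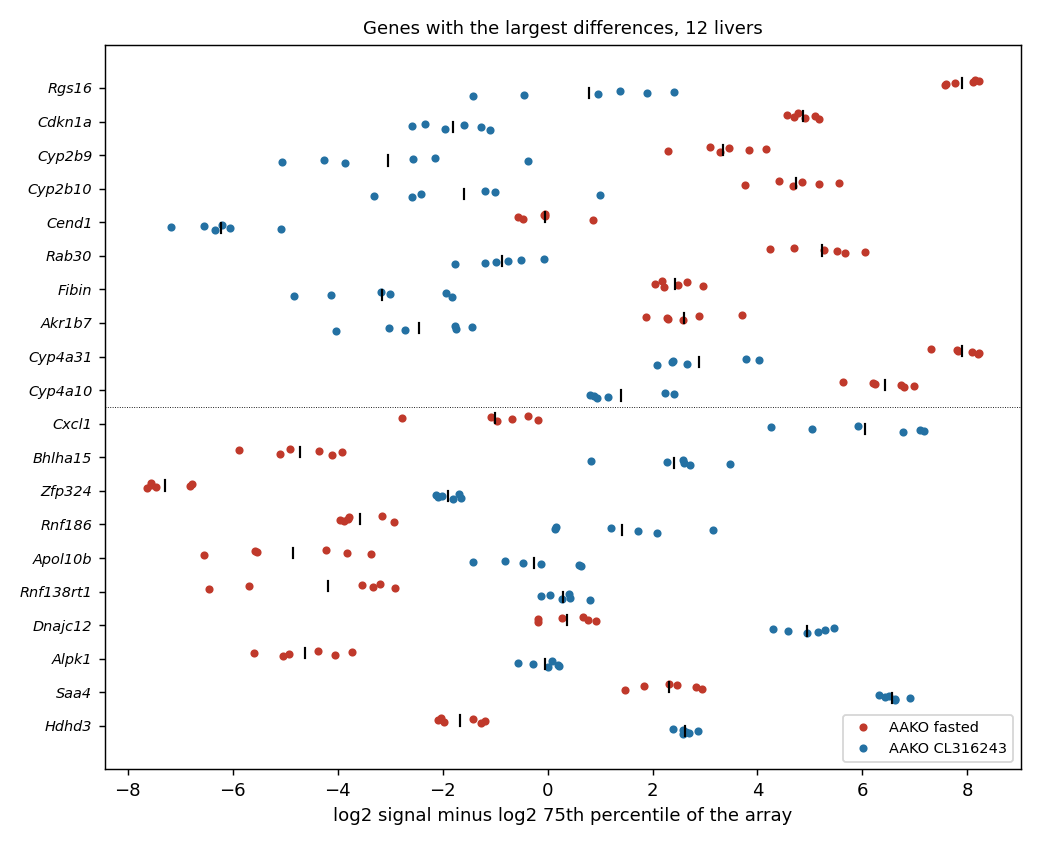
Signal of the 10 genes with the highest and the 10 with the lowest difference by the fixed rule, on a log2 axis relative to the 75th percentile of each array. Each point is 1 liver (red fasted, blue CL316243), and black ticks are the group means. For each gene the red and blue points do not overlap, as the rule required. Cxcl1 spans -2.77 to -0.18 in fasted and 4.25 to 7.17 in agonist livers.

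On the other side stood Cxcl1, a chemokine that attracts neutrophils. It ran from -2.77 over -0.82 to -0.18 in fasted livers and from 4.25 over 6.35 to 7.17 in agonist livers (-7.18 ± 0.81, adjusted p = 4.45e-09). Every agonist liver was high. Bhlha15, the transcription factor MIST1 of secretory cells, ran from -5.88 over -4.63 to -3.92 in fasted livers and from 0.83 over 2.6 to 3.48 in agonist livers (-7.16 ± 0.43). It was above background on 4 of 6 fasted arrays, and normexp correction gave -4.28. Dnajc12, a co-chaperone of aromatic amino acid hydroxylases, lay between -0.19 and 0.92 against 4.30 and 5.46 (-4.63 ± 0.46). Saa4, a serum amyloid A protein, lay between 1.47 and 2.95 against 6.32 and 6.91 (-4.31 ± 0.26), and the phosphatase-like gene Hdhd3 between -2.09 and -1.2 against 2.39 and 2.86 (-4.25 ± 0.26). The zinc finger gene Zfp324 was above background on no fasted array and on all 6 agonist arrays, which gives at least 10.3-fold by the same bound (the fitted -5.39 became -1.24 with normexp correction). Rnf186, Apol10b, Rnf138rt1 and Alpk1 differed by -4.99, -4.72, -4.64 and -4.59. They are dim in the fasted livers (Apol10b above background on 3 of 6 arrays, Rnf138rt1 and Alpk1 on 4), and normexp correction gave -3.2, -2.22, -2.26 and -2.17.

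Genes were also read in 30 lists drawn from textbook pathways. Lists low in the fasted livers, by median, were led by chaperones of the endoplasmic reticulum, cholesterol synthesis and acute phase proteins. Lists high in the fasted livers were led by responses to glucagon and glucocorticoids, immediate early factors and lipid droplet genes. A count of called members is to be read against all genes tested, of which 25.9% were called higher and 34.1% lower in AAKO, 17.8% and 19.3% in CTRL, and 13.3% and 18.5% in the test of the genotype difference. A list whose shares lie near these is not set apart by its count.

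**Figure D2:**
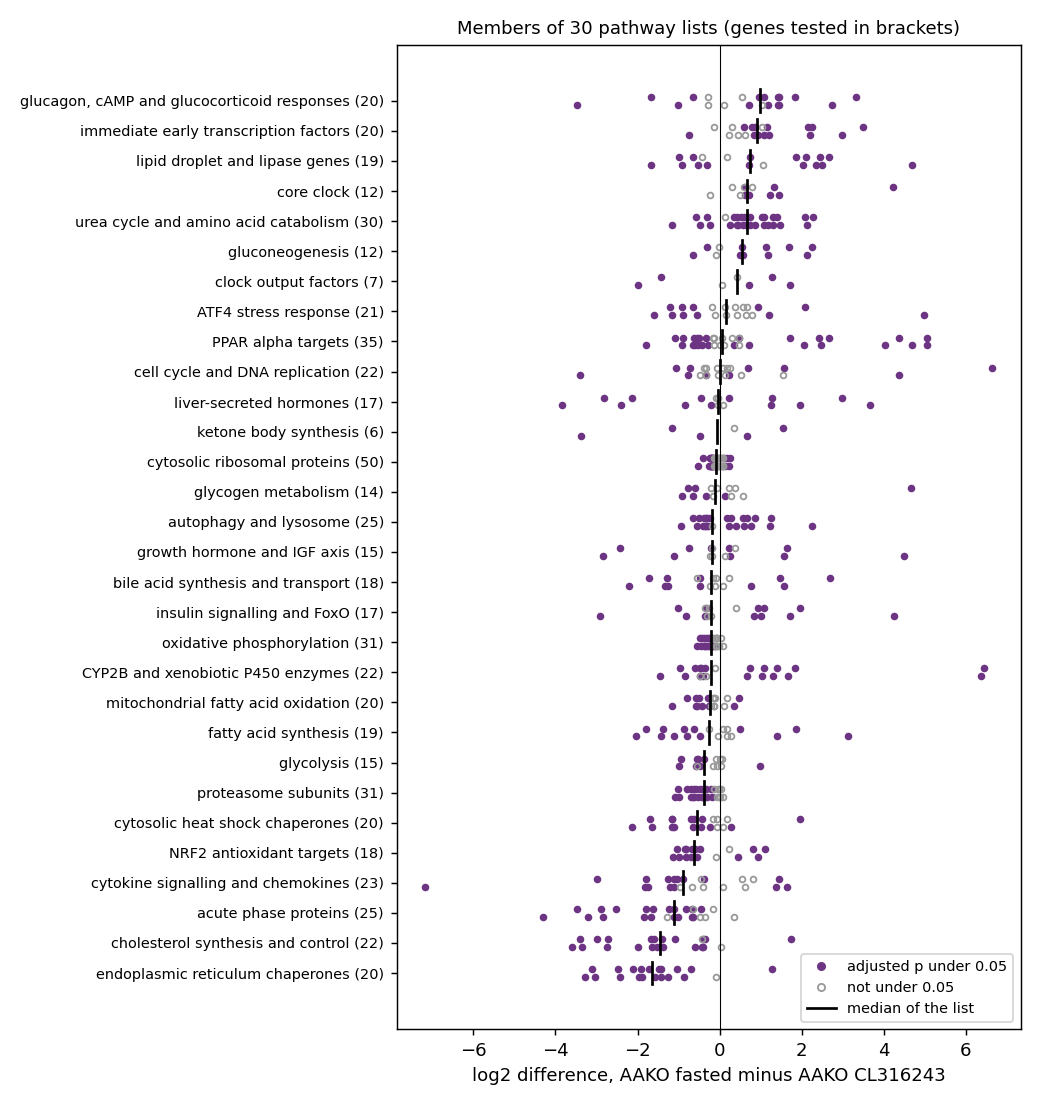
Log2 difference (AAKO fasted minus AAKO CL316243) of each tested member of the 30 lists, ordered by median from 0.99 at the top to -1.64 at the bottom. Filled points were called, open points were not, black bars are medians, and most lists hold members on both sides of 0.

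Chaperones and folding factors of the endoplasmic reticulum were low in the fasted livers almost as a block. Of 20 members 18 were lower, 1 higher and 1 not called, with a median of -1.64 against -0.08 for all genes tested. Of all genes 34.1% were called lower. The arrays of all 18 lower members did not overlap, beside 21% of all genes with fasted arrays lower and not overlapping. Creld2, a secreted protein of the unfolded protein response, ran from 4.10 over 4.34 to 4.73 in fasted livers and from 6.79 over 7.31 to 8.01 in agonist livers (-3.04 ± 0.24, adjusted p = 1.84e-12). Hspa5, the main lumenal chaperone BiP, ran from 6.49 over 6.84 to 7.10 against 7.82 over 8.25 to 8.57 (-1.43 ± 0.14, adjusted p = 1.67e-10). Sdf2l1, its partner in folding, was lowest at -3.29 ± 0.31. The calcium-binding chaperone Calr read 4.19 ± 0.44 against 6.13 ± 0.17 (-1.96). Xbp1, a transcription factor of this response, differed by -0.87 and Atf6, a sensor of it, by -0.08 without a call. The member that was higher was Herpud1, which serves the degradation of misfolded proteins (7.69 ± 0.04 against 6.38 ± 0.24; 1.28 ± 0.24, adjusted p = 3.10e-05). Calr, Xbp1, Atf6 and Herpud1 are named because of their values or their promoters, outside the naming rule. In CTRL livers the same list was lower too, with 18 members called and a median of -0.69, and the genotype difference was called for 16 members, 15 of them more negative in AAKO. That share is 15 of 20, beside 18.5% of all genes called lower in the genotype test.

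The promoters of 4 of these genes are shown because the list holds 1 member, Herpud1, that went against the rest, and because the stress element is written in full in a different form in it than in the 3 others shown. The endoplasmic reticulum stress element was searched as CCAAT, any 9 bases and CCACG, and its second form as ATTGG, any base and CCACG, on both strands, in the 250 bases before the start in RefSeq promoters (GRCm38.p6). Both forms hold the letters CCACG. The first form was in 7 of 17 members with an entry (Hspa5, Calr, Hsp90b1, Canx, Pdia6, Dnajc3 and Creld2) and in 37 of all 32851 promoters (0.113%). The second form was in Herpud1 and in 10 of all promoters (0.0304%). In this window no promoter of the list held both forms in full. The contrast is one of a single letter, since the last 18 bases of the Herpud1 window match the first form as far as they go, and the next base of the entry, after the start, differs from the pattern. In the whole entry of 300 bases the first form was again in 7 members, without Herpud1, and the second in 2 (Herpud1 and Dnajb11). With 1 of the 10 fixed letters allowed to differ, the first form was in 11 of 17 members, Herpud1 included (1.5% of all promoters), and the second in 7 (1.16%). Atf6, Hyou1 and Manf have no entry. Each line gives the 250 bases on the gene's strand, 5′ to 3′, with the match in capitals. Hspa5 lies at chr2:34771840-34772089 (plus), Calr at chr8:84846932-84847181 (minus), Creld2 at chr15:88819396-88819645 (plus) and Herpud1 at chr8:94386179-94386428 (plus).
Hspa5: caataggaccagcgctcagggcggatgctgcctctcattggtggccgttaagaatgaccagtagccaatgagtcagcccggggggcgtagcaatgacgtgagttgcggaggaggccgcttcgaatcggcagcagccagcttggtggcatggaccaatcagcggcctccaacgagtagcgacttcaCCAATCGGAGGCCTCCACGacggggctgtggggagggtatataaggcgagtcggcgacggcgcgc
Calr: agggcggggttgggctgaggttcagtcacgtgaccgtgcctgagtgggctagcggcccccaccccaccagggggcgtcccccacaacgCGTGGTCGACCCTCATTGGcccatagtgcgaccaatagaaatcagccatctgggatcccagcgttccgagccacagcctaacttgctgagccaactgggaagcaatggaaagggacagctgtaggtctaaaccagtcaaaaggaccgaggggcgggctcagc
Creld2: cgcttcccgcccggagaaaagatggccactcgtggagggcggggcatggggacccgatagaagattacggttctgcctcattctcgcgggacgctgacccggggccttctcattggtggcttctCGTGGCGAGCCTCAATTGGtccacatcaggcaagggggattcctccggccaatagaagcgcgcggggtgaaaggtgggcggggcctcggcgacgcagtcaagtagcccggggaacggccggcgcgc
Herpud1: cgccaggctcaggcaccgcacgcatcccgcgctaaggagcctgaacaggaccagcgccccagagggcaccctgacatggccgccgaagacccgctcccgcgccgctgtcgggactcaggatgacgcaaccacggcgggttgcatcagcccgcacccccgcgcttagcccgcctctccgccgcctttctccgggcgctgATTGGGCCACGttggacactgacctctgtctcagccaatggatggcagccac
Between the match and the start lie 46 bases in Hspa5, 41 in Herpud1, 143 in Calr and 107 in Creld2, where the match of Calr and Creld2 is on the opposite strand. These 2 patterns were among 8 searched after the values had been seen. A sterol response element (SRE) was in 0 of 16 cholesterol genes (0.0731% of all promoters) and the heat shock element (GAA, any 2 bases, TTC, any 2 bases, GAA) in 2 of 16 heat shock genes (0.466%). The E-box CACGTG was in 2 of 10 core clock genes and 3 of 6 clock output genes (6.02% of all promoters). It was also in 4 of 16 cholesterol genes, 2 of 17 chaperone genes and 2 of 16 heat shock genes. The D-box TTATGTAA was in 1 of 10 core clock genes and 1 of 17 chaperone genes (0.819%). TGACGTG and the cAMP element TGACGTCA were in 1 and 0 of the 17 chaperone genes (1.65% and 1.55%). CACGTG can overlap the end of the first 2 patterns. A match describes the letters in the window and nothing about binding.

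Cytosolic heat shock chaperones were lower in 13 of 20 cases and higher in 2 (median -0.54), beside 34.1% and 25.9% of all genes. Chordc1, a co-chaperone of HSP90, was lowest at -2.13 ± 0.14, and Hspa8, the constitutive HSC70, was 1.58-fold lower. Hspa1a, an inducible HSP70 gene, went the other way, lying between 1.05 and 2.05 in fasted livers and between -1.61 and 0.76 in agonist livers (1.96 ± 0.38, adjusted p = 3.93e-05). It did not differ to the level of a call in CTRL (-0.26), and the genotype test gave 2.22 (adjusted p = 0.00164; 1.82 within wash batch 2, adjusted p = 0.0958). Its twin Hspa1b did not share that direction. Hspa1b ran from -0.20 over 0.19 to 0.26 in fasted and from 0.20 over 0.40 to 1.89 in agonist livers. The proteasome list followed, with 23 of 31 subunits lower and none higher (median -0.39). Psma1, a subunit of its core, ran from 4.10 over 4.20 to 4.21 against 5.09 over 5.28 to 5.38 (-1.09 ± 0.06), and Psmd1, of its cap, differed by -0.64. In CTRL livers 10 subunits were higher and 4 lower, and the genotype test was called for 29 of 31, all more negative in AAKO. With the authors' value table the proteasome count in AAKO was 21 lower and 5 higher. For ribosomal proteins no direction is given, since 18 of 50 ribosomal genes were lower and 5 higher here, but 2 were lower and 17 higher in the authors' value table. For oxidative phosphorylation 20 of 31 subunits were lower and none higher here, against 6 lower and 2 higher there. Sdhb and Rpl3 differed by -0.07 (not called) and -0.41, and Sdhc, a membrane subunit of complex II, by -0.54.

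Genes of cholesterol synthesis and its control, which answer to the sterol-regulated factor SREBP2, were mostly lower in fasted livers. Of 22 members 19 were lower, 1 higher and 2 not called, with a median of -1.46. Mvd, a decarboxylase of the mevalonate pathway, ran from -1.74 over -1.25 to -0.61 in fasted livers and from 1.83 over 2.36 to 2.77 in agonist livers (-3.60 ± 0.20, adjusted p = 2.04e-15). The groups of arrays stand clear of each other. The 1 higher member, Pmvk, the phosphomevalonate kinase, lay between 5.68 and 7.5 against 4.46 and 5.14 (1.75 ± 0.21, adjusted p = 2.05e-08) and is named as the exception. In CTRL livers all 22 members were lower, Pmvk included (-1.37), with a median of -2.32. The genotype test was called for 12 members, 9 less negative in AAKO and 3 more negative, Mvd among the 3 (-0.90, adjusted p = 0.0158; -0.47 within wash batch 2, adjusted p = 0.455).

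Fatty acid synthesis was divided. Srebf1, its insulin-responsive transcription factor, was lower (3.77 to 4.09 against 4.53 to 5.52; -1.12 ± 0.19), as were 8 more of 19 members, while 4 were higher and 6 not called. Fasn, the fatty acid synthase, ran from 6.32 over 6.63 to 7.06 in fasted and from 6.03 over 6.59 to 7.07 in agonist livers. The groups lay on top of each other (0.09 ± 0.26, adjusted p = 0.774). Thrsp, a lipogenic regulator, overlapped too (4.67 to 6.65 against 4.44 to 6.85; -0.26 ± 0.40). In CTRL livers Fasn and Thrsp were lower by -1.36 and -2.44, and their genotype tests gave 1.46 (adjusted p = 0.00254) and 2.18 (adjusted p = 0.00321). Within wash batches the genotype call of Thrsp was lost (2.06 and 2.21), and that of Fasn in wash batch 2 (0.83). Lpin1, the phosphatidate phosphatase and PPAR alpha coactivator lipin 1, ran from 7.03 over 7.09 to 7.30 in fasted and from 2.65 over 4.05 to 5.00 in agonist livers (3.13 ± 0.48, adjusted p = 1.22e-06). In CTRL livers it was not called (0.45), and without CTRL fasted replicate 2, at 6.60 where the others ran from 2.74 to 4.29, that difference was -0.07. Its genotype test gave 2.68 (adjusted p = 0.00265), and 3.23 without that array. Within wash batch 1 it gave 4.23, and within wash batch 2 it gave 1.04 without a call (adjusted p = 0.519). Pnpla3, a lipase-like lipid droplet protein, read 1.85 ± 0.52 at its brighter probe and -1.90 ± 0.29 at its second probe. It was above background on 1 of 6 agonist arrays, normexp correction gave 0.23 without a call, and no direction is taken from it.

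PPAR alpha targets were found on both sides. Of 35 members tested (a further listed gene, Cyp4a32, was not tested) 13 were higher, 13 lower and 9 not called, and the median was 0.06. Of all genes 25.9% were higher and 34.1% lower, so the lower share is near that of all genes. The higher members were led by the omega-hydroxylases Cyp4a31, Cyp4a10 and Cyp4a14, the lipid droplet protein Cidec and Pdk4, which blocks glucose oxidation (4.38 ± 0.49, named for its value). Cyp4a10 ran from 5.63 over 6.49 to 6.99 in fasted and from 0.81 over 1.05 to 2.41 in agonist livers (adjusted p = 1.86e-14). Cidec ran from 3.27 over 4.27 to 5.70 against -0.83 over -0.46 to 0.15 (4.68 ± 0.41). Cyp4a14 differed by 4.03 ± 0.35, but by 1.76 after normexp correction, and it was above background on 5 of 6 agonist arrays. The lower members included Acadm, Vnn1 and the lipid droplet protein Plin2. Acadm, the medium-chain acyl-CoA dehydrogenase, differed by -0.42 ± 0.09, and Vnn1, a pantetheinase, by -0.89 ± 0.24 (-0.84 within wash batch 2, adjusted p = 0.0532). Plin2 was lower by -0.66 ± 0.25 (adjusted p = 0.0229), a call lost without fasted replicate 2 (-0.51), 4 (-0.56) or 5 (-0.59), or without agonist replicate 4 (-0.58) or 6 (-0.59). It was also lost within wash batch 1 (-0.28), after quantile normalization (-0.53) and in the authors' value table (-0.49). A second Plin2 probe read -0.10 ± 0.26, and the mean of the probes gave -0.38 (adjusted p = 0.192). Cpt1a, which admits fatty acids to mitochondria, was higher by 0.48 ± 0.12, and by 0.39 within wash batch 1 where the call was lost (adjusted p = 0.0673).

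The same targets differed from CTRL livers by test. There 26 of 35 were higher and 2 lower (17.8% and 19.3% of all genes), with a median of 0.61. The genotype test was called for 21, with 17 more negative and 4 more positive in AAKO, beside 18.5% and 13.3% of all genes. Of them 6 were called in opposite directions in the genotypes, lower in fasted AAKO livers and higher in fasted CTRL livers: Vnn1, Hadha, Acaa1b, Aldh3a2, Acadm and Ech1. For Vnn1 the differences were -0.89 in AAKO and 1.34 in CTRL (genotype test -2.23, adjusted p = 7.27e-06). In the authors' value table the AAKO count was 17 higher and 9 lower, with a median of 0.23. Mitochondrial fatty acid oxidation as a list had 10 of 20 lower and 2 higher in AAKO (median -0.23), and 12 higher and 2 lower in CTRL. Its lowest member was Hadh, which works on shorter chains (-1.16 ± 0.12). Of 6 ketone genes 3 were lower and 2 higher. Bdh1, which turns acetoacetate to beta-hydroxybutyrate, ran from 0.92 over 1.61 to 2.84 in fasted livers and from 4.77 over 5.15 to 5.42 in agonist livers (-3.39 ± 0.25, adjusted p = 3.17e-13; CTRL -0.90).

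**Figure D3:**
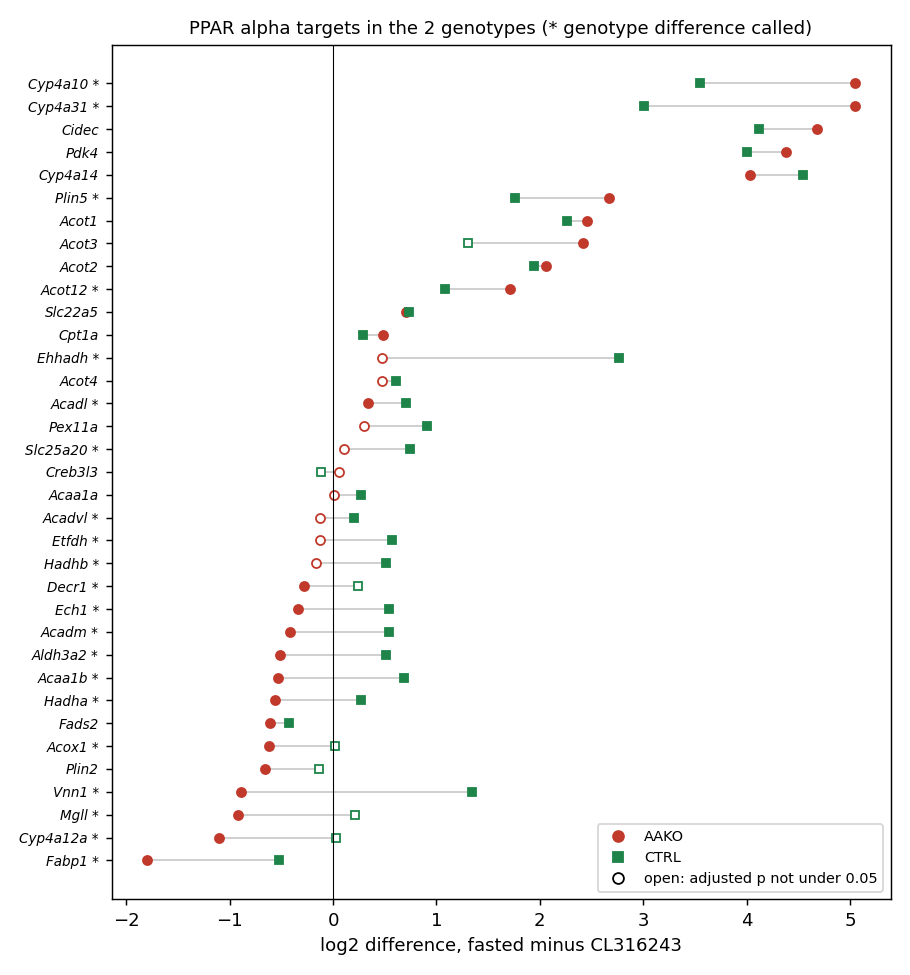
Log2 difference (fasted minus CL316243) of the 35 PPAR alpha targets in AAKO (red circles) and CTRL livers (green squares), ordered by the AAKO value, with lines joining the genotypes. Filled symbols were called, and a star marks a called genotype difference. Cyp4a31 reaches 5.05 in AAKO and 3.01 in CTRL, while most starred enzymes in the lower part lie below 0 in AAKO and above it in CTRL.

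Glucose-producing genes were mostly higher in fasted livers, 8 of 12 against 2 lower (median 0.55), beside 25.9% and 34.1% of all genes. G6pc, which releases free glucose, ran from 7.69 over 8.09 to 8.40 in fasted livers and from 3.55 over 6.20 to 6.74 in agonist livers (2.25 ± 0.39, adjusted p = 9.53e-06). Pck1, the other rate-controlling enzyme, was about as bright in both, from 8.90 to 9.08 against 8.76 to 9.24 (-0.10 ± 0.18, not called). The coactivator Ppargc1a was higher by 1.14 ± 0.24, and by 0.74 within wash batch 2 without a call (adjusted p = 0.119). Among 15 genes of glycolysis and its control 7 were lower and 1 higher. Mlxipl, the carbohydrate-responsive transcription factor ChREBP, lay between 5.25 and 5.69 in fasted livers and between 6.18 and 6.75 in agonist livers (-1.0 ± 0.11, adjusted p = 1.30e-09). Its other probes read 0.40 ± 0.08 and -0.04 ± 0.20, so the probes disagree, and their mean gave -0.21 (adjusted p = 0.0485). Pklr, the liver pyruvate kinase, was the 1 higher member (0.98 ± 0.26; 0.69 within wash batch 2, adjusted p = 0.0547). It was lower in CTRL livers (-1.08), and the genotype test gave 2.06 (adjusted p = 5.10e-05). Of 14 glycogen genes 2 were higher and 5 lower. Ppp1r3g, a subunit that directs phosphatase to glycogen, ran from 5.13 over 5.79 to 6.99 against -1.22 over 1.55 to 4.55 (4.66 ± 0.88, adjusted p = 3.23e-05; CTRL -0.05). Its agonist livers were spread over more than 5 log2 units. Gys2 and Ppp1r3c were not called (0.28 and 0.56).

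Of 30 genes of amino acid breakdown and the urea cycle 24 were higher and 5 lower in fasted livers (median 0.66), beside 25.9% and 34.1% of all genes. Sdsl, a serine dehydratase-like enzyme, ran from 5.98 over 6.56 to 6.71 against 3.89 over 4.09 to 4.54 (2.28 ± 0.14, adjusted p = 8.99e-15). Sds differed by 1.03 ± 0.21, and Cps1, which feeds ammonia to the urea cycle, by 0.75 ± 0.12. In CTRL livers 14 members were higher and 5 lower (17.8% and 19.3% of all genes). ATF4 targets were mixed (4 higher and 7 lower of 21 tested), and Asns, the asparagine synthetase, was not called (0.57). Ddit4, an inhibitor of mTORC1, stood out, from 8.67 over 8.72 to 8.86 in fasted livers and from 2.50 over 3.92 to 4.46 in agonist livers (4.99 ± 0.48, adjusted p = 1.30e-10). Its genotype test gave 3.02 (adjusted p = 0.000788), and 2.04 without a call within wash batch 2 (adjusted p = 0.269). In CTRL livers it was higher by 1.97, and by 1.32 without CTRL fasted replicate 2. In the insulin and FoxO list 7 of 17 tested were higher and 5 lower. Sesn1, a FoxO and p53 target that also restrains mTORC1, ran from 5.87 over 6.11 to 6.46 against 1.28 over 1.83 to 2.58 (4.24 ± 0.28, adjusted p = 6.44e-14). In CTRL it was not called (0.48). That value rests on CTRL fasted replicate 2, at 4.68 where the others ran from 1.77 to 2.19, and it was 0.04 without it. The genotype test gave 3.76 (adjusted p = 3.30e-08), and 4.23 without that array. Irs2, an insulin receptor substrate, was not called (0.40).

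Among 17 liver-secreted hormones 6 were higher and 7 lower. Inhbe, the activin E subunit, ran from -2.14 over -2.01 to -0.54 in fasted livers and from 1.54 over 1.86 to 2.75 in agonist livers (-3.83 ± 0.31, adjusted p = 3.31e-12). Igfbp1, which binds IGF1 and is repressed by insulin, lay between 10.04 and 10.17 in all fasted livers and between 6.89 and 9.06 in agonist livers (1.96 ± 0.59, adjusted p = 0.00473). Its difference was 1.81 and 2.02 within the wash batches, where it lost the call. Angptl8, an insulin-induced inhibitor of lipoprotein lipase, was lower (1.25 to 2.50 against 2.50 to 6.70; -2.83 ± 0.60), and by -1.99 without a call in wash batch 1. Fgf21, a fasting hormone, was not called (-0.05 ± 0.59), with both groups overlapping and dim. Igf1 differed by 0.22 ± 0.06, and lost its call within the wash batches (0.27 and 0.14). Pappa2, a protease that frees IGF1, ran from 0.00 over 0.54 to 1.49 in fasted and from -6.07 over -3.85 to -2.31 in agonist livers (4.49 ± 0.43). In CTRL it differed by 0.26, and normexp correction gave 2.28 for AAKO. Socs2, a feedback inhibitor of growth hormone signalling, was higher by 1.63 ± 0.55, a call lost without agonist replicate 3 (1.16, adjusted p = 0.0617) and within wash batch 1 (1.00).

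Lipid droplet and lipase genes were more often higher, 10 of 19 against 6 lower (median 0.74), beside 25.9% and 34.1% of all genes. The lower share is thus near that of all genes. After normexp correction the median was 0.25, with 9 higher and 6 lower. Cidec and Pnpla2, given above, were among the higher ones, and G0s2, the inhibitor of ATGL, was not called (1.05 ± 0.63), although it was called within wash batch 1 (2.46, adjusted p = 0.0296), with values from -0.85 to 2.91 in fasted and -2.13 to 0.95 in agonist livers.

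The core clock list had 7 of 12 members higher in fasted livers and none lower (median 0.67). Arntl, which encodes the activator BMAL1, ran from 1.48 over 1.70 to 1.95 in fasted and from -3.01 over -2.56 to -2.05 in agonist livers (4.23 ± 0.29, adjusted p = 7.42e-14). CTRL livers differed by nearly as much (3.92). Dbp, an output factor that BMAL1 drives, was lower, from 3.45 over 3.92 to 4.21 against 5.28 over 5.89 to 6.40 (-1.98 ± 0.34, adjusted p = 6.66e-06). In CTRL it was -3.96, and the genotype test gave 1.99 (adjusted p = 0.00159; 1.83 and 2.07 without a call within the wash batches). Nr1d1, the repressor REV-ERB alpha, was not called in AAKO (0.80 ± 0.38, adjusted p = 0.0726) and was lower in CTRL (-1.67). The genotype test gave 2.46 (adjusted p = 0.000668), and 1.55 without a call within wash batch 1. For Nr1d1 the AAKO difference was called at 0.89 in the authors' value table and at 0.94 without fasted replicate 3. Per1 was higher by 0.72 ± 0.28 at its brighter probe and read -0.12 ± 0.25 at its second probe. Its call was lost without fasted replicate 2 (0.66) or 6 (0.64) or agonist replicate 1 (0.65), and within wash batch 2 (0.50).

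Immediate early transcription factors were higher in 13 of 20 cases and lower in 1 (median 0.90, against 0.10 in CTRL). Myc ran from 1.22 over 2.17 to 2.94 in fasted livers and from -2.77 over -1.76 to -0.17 in agonist livers (3.49 ± 0.68, adjusted p = 5.20e-05). Atf3 differed by 2.15 ± 0.40. Fos differed by 1.09 ± 0.38, and by 1.13 and 1.02 without a call within the wash batches. Of 20 responses to glucagon, cAMP and glucocorticoids 11 were higher and 4 lower. Fkbp5 and Tsc22d3, both induced by glucocorticoids, were higher by 1.45 ± 0.27 and 1.43 ± 0.24, though Tsc22d3 lost its call in wash batch 2 (0.93, adjusted p = 0.0628). Their other probes read higher, 2.02 and 3.74 for Fkbp5 and 2.93 for Tsc22d3, and the means of the probes gave 2.40 and 2.18. Mt2, a metallothionein, was bright in all 12 livers, from 9.80 to 9.93 in fasted and from 9.96 to 10.21 in agonist livers. The fit did not call it (-0.28 ± 0.94), nor did a fit of only the groups compared. The shared spread of the main fit includes groups such as CTRL CL316243, where Mt2 ran from 3.58 to 9.41.

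Of 22 xenobiotic cytochrome genes tested 10 were higher and 9 lower, so the family was divided. In bile acid metabolism 4 of 18 were higher and 7 lower. Cyp7a1, the rate-limiting enzyme of bile acid synthesis, was higher by 1.58 ± 0.43 (3.19 to 5.53 against 1.92 to 4.54), but by 0.85 without a call in wash batch 1. Cyp8b1, which makes cholic acid, was higher by 1.47 ± 0.22. Slco1a4, an uptake carrier, was highest, from 3.98 over 4.41 to 4.76 against 1.2 over 1.59 to 2.43 (2.69 ± 0.22).

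Acute phase proteins were lower in fasted livers in 19 of 25 members tested and higher in none (median -1.12), beside 34.1% of all genes called lower. Saa1, a major acute phase protein, was at 10.39 to 10.69 in all 6 agonist livers, whereas the fasted livers ran from 5.32 over 7.90 to 10.09 (-2.89 ± 1.01, adjusted p = 0.0140). Thus the agonist livers were all high and the fasted livers split widely. Its call was lost within either wash batch (-3.56 and -2.01). Saa2 was alike (-2.85 ± 1.00), and its call was lost without fasted replicate 3 (-2.38, adjusted p = 0.0511). Lcn2 differed by -3.47 ± 1.30 and lost its call without fasted replicate 3 (-3.12) or 6 (-2.99). Orm2 (-1.11 ± 0.45) lost its call without any 1 of 6 arrays, at -0.86 without fasted replicate 3. In CTRL livers 6 of 25 were lower, near the 19.3% of all genes. The genotype test was called for 9, all more negative in AAKO, beside 18.5% of all genes. Of 23 cytokine and chemokine genes tested 12 were lower and 3 higher. Socs3, induced by STAT3, ran from 2.11 over 2.32 to 3.42 against 4.13 over 5.73 to 6.47 (-2.99 ± 0.50, adjusted p = 4.45e-06), with no overlap.

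Markers of several other cell types also differed, and their part in the result was not tested. Of 11 neutrophil markers 6 were higher in fasted livers and none lower (Retnlg, Ngp, S100a8, S100a9, Ltf and Mmp8, named for their values). The arrays of S100a8, S100a9 and Ltf overlapped between the groups. Not called were Ly6g (-0.11), Camp (0.34), Mpo (-0.06), Elane (0.15) and Cxcr2 (0.54). Retnlg ran from -0.03 over 1.71 to 2.91 in fasted and from -3.41 over -2.43 to -1.31 in agonist livers (3.96 ± 1.01). The summed linear level of all 11 markers, in units of the 75th percentile, was 11.8 to 130 in fasted and 5.32 to 13.5 in agonist livers. Ngp and Ltf were above background on no agonist array, and the list median was 2.31, or 0.40 after normexp correction. Thus Cxcl1, which attracts neutrophils, and the 6 called markers were high in opposite groups, while the other neutrophil markers were not called. By limma none of 11 Kupffer cell markers was called in AAKO livers, though normexp correction called 3 higher, as did the authors' value table. Their sum ranged from 30.3 to 136 in fasted and 62.4 to 96.7 in agonist livers. Endothelial markers were higher in 7 of 10 and lower in none (sums 62 to 78.9 and 46 to 65.7). Lyve1, a hyaluronan receptor of sinusoidal endothelium, ran from 2.48 to 2.87 against -0.71 to 0.47 (2.82 ± 0.28). Adipocyte markers, at sums of 11.1 to 19.3 and 5.79 to 9.71, were higher in 5 of 9 and lower in 1. The higher ones were Fabp4, the brightest (3.26 against 1.59), Plin1, Cidea, Lipe and Pparg, and the lower one was Lep (-0.35). The adipokine gene Adipoq, above background on 3 of 6 arrays of each group, was not called (-0.44), nor were Retn and Cfd. Of 10 stellate cell markers 3 were higher and 4 lower, near the shares of all genes, so the count is no result about these cells. Their sums of 186 to 240 and 90.1 to 135 mainly reflect the brightest members, Dcn (6.84 against 5.70) and Ecm1 (6.31 against 5.44). Reln was also higher, while Col1a1, Col3a1, Acta2 and Hgf were lower. The remaining counts were near or below the 34.1% of all genes called lower or the 25.9% called higher, and are no result about these cells. They were 3 of 8 cholangiocyte markers lower and none higher (sums 25.7 to 46.8 and 51.4 to 81.1), 2 of 8 T and NK cell markers lower, 2 of 6 B cell markers higher, 1 of 5 erythroid markers lower and 2 of 5 pancreatic acinar markers lower.

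Among stress and turnover genes the NRF2 targets had 12 of 18 tested lower and 4 higher (median -0.62). Taldo1, of the pentose phosphate pathway, was lower (-1.13 ± 0.07), while Nqo1, the classical target, was higher by 0.44 ± 0.13 (0.36 within wash batch 1, adjusted p = 0.119, and 0.19 after normexp correction). The autophagy and lysosome list was even, with 12 of 25 higher and 12 lower. Bnip3, a mitophagy receptor, ran from 8 over 8.25 to 8.71 against 5.45 over 6.10 to 6.63 (2.25 ± 0.20), and the cargo receptor Sqstm1 was higher by 0.60 ± 0.08. In the cell cycle list 5 of 22 tested were higher and 5 lower, with Cdkn1a at one end and cyclin D1 (Ccnd1) at the other. Ccnd1 ran from -1.78 over -1.46 to -0.37 in fasted and from 1.76 over 2.15 to 2.42 in agonist livers (-3.40 ± 0.24, adjusted p = 1.33e-13).

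The same contrast in CTRL mice shares no array with the AAKO contrast. It called 8938 genes (37.1%), 4286 higher (17.8%) and 4652 lower (19.3%) in fasted livers, and 1867 with at least 2-fold differences (7.75%). Both genotypes called 6672 genes in the same direction (27.7% of all genes), which is 46.2% of the AAKO calls and 74.6% of the CTRL calls. They called 407 in opposite directions (1.69% of all genes), 189 of them higher in fasted AAKO livers. The test of the genotype difference itself called 7666 genes (31.8%), 3209 more positive in AAKO and 4457 more negative, and 2222 by at least 2-fold (9.22%). Cdkn1a (5.86 in CTRL), Cyp2b10 (5.89), Cyp2b9 (5.99), Cxcl1 (-4.86) and Arntl were called in both genotypes without a called genotype difference, except that Cdkn1a was called by that test after normexp correction (1.06). For Cxcl1 that difference was -2.32 (adjusted p = 0.126), so the test does not show that the genotypes are alike. Among the CTRL fasted arrays replicate 2 lay apart from the other 5 by Dixon's criterion for 1511 of 24089 genes, and the other arrays for 86 to 629. Without it the CTRL contrast called 8224 genes and the genotype test 8664. Of the named genes Fibin (1.14 to 0.75) and Hdhd3 (-0.76 to -0.39) lost their CTRL call without it.

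Among the named genes the genotype difference was largest for Rgs16, which did not differ in CTRL livers to the level of a call (0.17, adjusted p = 0.903; genotype test 7.02, adjusted p = 4.10e-05). The CTRL livers lay between 2.52 and 5.94 when fasted and between 2.98 and 5.16 with the agonist, so the AAKO fasted livers lie above and the AAKO agonist livers below both CTRL groups. Next by the naming rule were Ppp1r3g (4.71), Rab30 (4.68) and Scin (4.60). Scin, an actin-severing protein, was above background on no agonist array in AAKO, which gives at least 8.91-fold by the bound (the fitted 4.76 became 0.85 with normexp correction). Within wash batch 2 alone the genotype calls of Ppp1r3g (4.14) and Rnf138rt1 (-2.07) were lost. On the negative side were Rad51b (-4.47), Bhlha15 (-4.23), Rnf138rt1 (-4.16) and Tnfaip6 (-4.06). Tnfaip6, a secreted inhibitor of inflammation, was lower in fasted AAKO livers (-2.13) and higher in fasted CTRL livers (1.93). It is near background (3 of 6 fasted AAKO arrays above), and normexp correction gave -0.68 for the genotype test. The 2 probes of Rad51b, a recombination gene, disagreed (-3.2 and 0.60 in AAKO), and their mean gave -1.19 without a call.

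**Figure D4:**
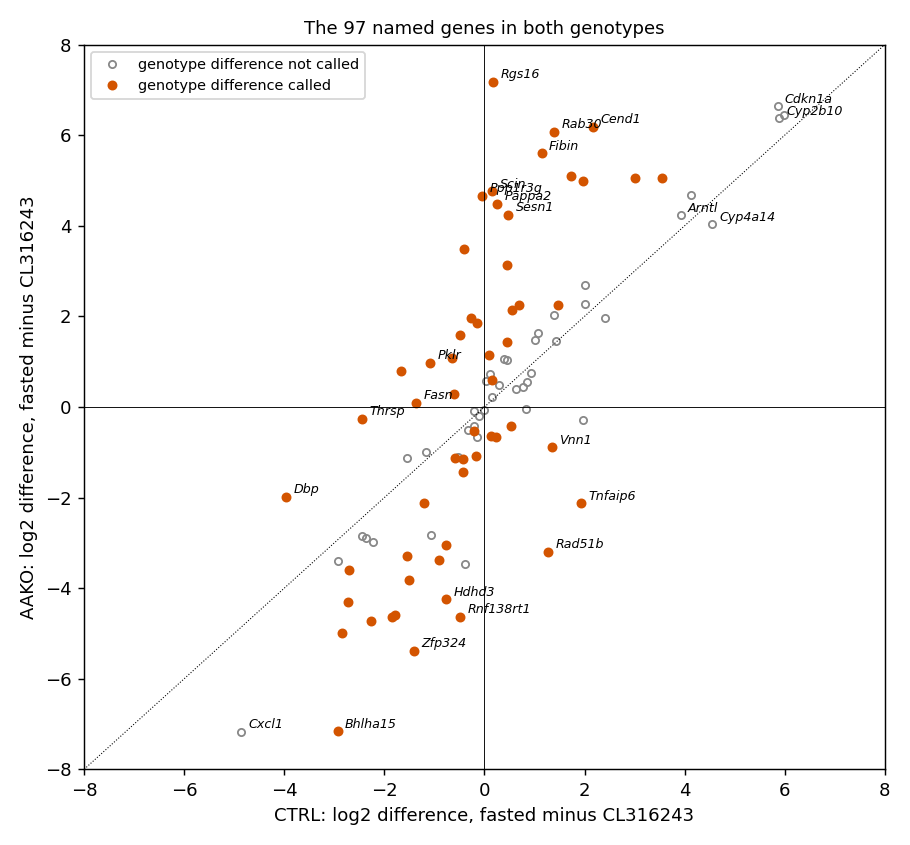
Log2 difference (fasted minus CL316243) of the 97 named genes in CTRL (horizontal) and AAKO livers (vertical), with the dotted line where both are equal. Orange points have a called genotype difference. Cdkn1a, at 5.86 and 6.64, lies near the line, while Rgs16, at 0.17 and 7.18, lies far above it.

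AAKO fed livers give a further level for each gene, although they belong to experiment 2, so the 2 experiments and the feeding states cannot be told apart there, and both contrasts share the fed arrays. Some genes were near the fed level with the agonist and away from it in the fast. Cyp4a10 differed from fed by 5.15 in fasted livers and 0.10 in agonist livers (adjusted p = 0.849), Ddit4 by 4.67 and -0.32, Lpin1 by 3.27 and 0.14, and Creld2 by -2.80 and 0.23. Others differed from fed in 1 direction in both, by different amounts: Srebf1 by -2.69 and -1.56 and Igfbp1 by 4.15 and 2.19. Fasn differed from fed by nearly the same amount in both (-1.83 and -1.92). For Mt2 the differences from the fed mean were 3.72 and 4.00, but fed Mt2 ran from 3.56 to 9.92. The highest fed liver for Mt2 lies within the fasted range (9.80 to 9.93). Arntl lay on opposite sides of the fed level (1.87 in fasted and -2.36 in agonist livers), as did Bhlha15 (-3.94 and 3.22). Some genes had no single fed level. Fed Cxcl1 was 0.47, 0.47, 0.79, 1.90, 5.72 and 5.83, so that 2 of 6 fed livers lie within the agonist range, and the differences from the fed mean (-3.54 and 3.64) hide that overlap. Fed Saa1 was 5.25, 5.27, 6.06, 9.31, 10.15 and 10.64, split like the fasted livers. The difference of means was -0.01 for fasted and 2.88 for agonist livers (adjusted p = 0.0280), while the highest fed liver lies within the agonist range and the next just below it. Fed Socs3 was split too, from 0.48 to 1.57 in 4 livers and at 3.80 and 4.24 in the other two, and differed from the fed mean by 0.38 in fasted and 3.37 in agonist livers.

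**Figure D5:**
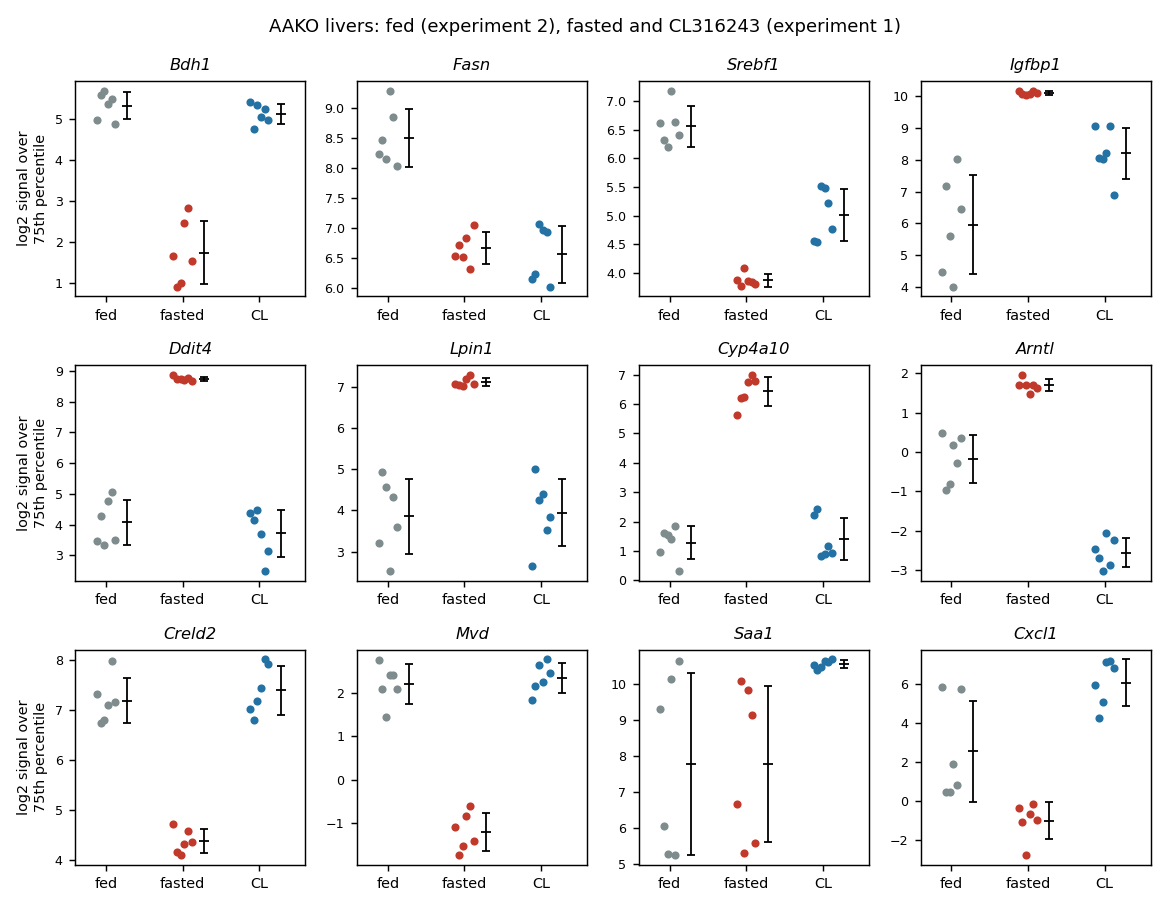
Signal of 12 genes in AAKO fed (grey), fasted (red) and CL316243 livers (blue), in log2 units above or below the array's 75th percentile. Points are livers, black marks are means with SD (n = 6), and the fed livers belong to another experiment. Srebf1 reads 6.56 ± 0.35 in fed, 5.01 ± 0.45 in agonist and 3.87 ± 0.11 in fasted livers.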

How the data were processed

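Liver RNA (200 ng, TRIzol extraction, Cy3) was hybridised to 1-colour Agilent mouse arrays, 1 per sample, per the labels' protocols. The intensity used is the processed signal that the authors deposited from Agilent Feature Extraction 10.10.1.1, already background-corrected, per the file headers. The files also carry the scanner's marks for spots above background, outlying or saturated (0 saturated; 2701 outlying spots were dropped), as deposited. Of 59305 non-control spots, spots of 1 probe were averaged (56605 probes), and log2 values were set against each array's 75th percentile. The authors' deposited log2 value table (36898 probes) served as an alternative; each of its 36 columns correlated best with its own array (r 0.99957 to 0.99981 across probes), and how its values were scaled and centred is not given in the sources used here. Probe coordinates are mm9, per the file headers. RefSeq (GRCm38.p6 table, used for names) named 32994 probes. A gene is its brightest probe, and 24096 of 37061 genes, well above background on at least 5 of 6 arrays of 1 group, were tested.

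limma 3.58.1 in R 4.3.3 fitted 6 group means and the wash batch over 36 arrays, with Benjamini-Hochberg adjustment, two-sided. The fit was tested on simulated data. Precision is limited by the 6 arrays per group. Where a probe was above background in 1 group and on no array of the other, the bound is the bright mean over the lowest signal well above background. The genes named are the 10 highest and 10 lowest differences with arrays that do not overlap, the key members of each list, the called member of each list with the largest difference, and the 4 highest and 4 lowest genotype differences. Others are named for their values. Certain genes were left out of the lists and named genes and are not reported here. The arrays compared, the lists and the searches were chosen with earlier results of these data known. Alternatives covered scaling, background, filter, probe choice, arrays in the fit, wash batch, slide, replicate number and arrays left out. A wider promoter window and CTRL differences with arrays left out were added after seeing the data.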

Additional observations from a re-analysis of the deposited data

Results flagged for a closer look

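Of 194 sets of 6 livers (97 named genes in each AAKO group), 13 held 1 liver far from the other 5 by Dixon's criterion, which chance alone meets in about 1 of 20 sets. Among fasted livers these were Cend1 in replicate 6 (0.87, the others -0.57 to -0.04), Cxcl1 in replicate 3 (-2.77, the others -1.07 to -0.18) and Inhbe in replicate 6 (-0.54, the others -2.14 to -1.75). Further values apart were Srebf1 in replicate 3 (4.09, the others 3.77 to 3.87), Atf3 in replicate 1 (1.92, the others -0.4 to 0.28) and Psmd1 in replicate 3 (4.29, the others 4.47 to 4.53). Among agonist livers these were Plin2 in replicate 2 (4.62, the others 5.51 to 5.92), Pck1 in replicate 6 (8.76, the others 9.07 to 9.24) and G6pc in replicate 6 (3.55, the others 5.99 to 6.74). Further values apart were Pnpla3 in replicate 4 (-2.97, the others -5.92 to -5.07), Igf1 in replicate 1 (7.34, the others 7.57 to 7.7) and Socs2 in replicate 3 (1.8, the others 3.67 to 4.6). Also apart was Nqo1 in replicate 2 (-1.48, the others -2.15 to -2.02).

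The fasted minus CL316243 difference itself differed between AAKO and CTRL livers, by the limma test of the genotype difference, for 56 of the 97 named genes. Of these 30 were more positive and 26 more negative in AAKO, and 31.8% of all genes were called. The naming rule chose some of the 97 for a large genotype difference and others for a large AAKO difference. Their share therefore cannot be compared with that of all genes and is no result. The values are AAKO minus CTRL differences on the log2 scale. Within wash batch 1 alone 43 of these 56 calls held, and within wash batch 2 alone 28, in the same direction throughout. The value moved by more than 1.5 times for 5 and 10 of them, among them Lpin1 (4.23 and 1.04), Tsc22d3 (1.59 and 0.16) and Bnip3 (1.34 and 0.23), while Gys2 lost its call in both (1.08 and 0.69) and Ddit4 in wash batch 2 (2.04). Also moved were Cyp7a1 (0.85 and 3.49), Ppargc1a (0.56 in wash batch 2), Sdf2l1 (-0.8), Apol10b (-1.6), Nr1d1 (1.55 in wash batch 1), Mvd (-0.47), Fasn (0.83) and Rnf138rt1 (-2.07). Cyp4a10 lost its genotype call within both wash batches (1.42 and 1.82). It also lost that call with the mean of its probes (1.02, adjusted p = 0.101 by limma). More positive in AAKO were Rgs16 (7.02), Ppp1r3g (4.71), Rab30 (4.68), Scin (4.6) and Fibin (4.47). Next in size came Pappa2 (4.24), Cend1 (4.02), Myc (3.89), Sesn1 (3.76) and Akr1b7 (3.37). These were followed by Ddit4 (3.02), Lpin1 (2.68), Nr1d1 (2.46), Hspa1a (2.22) and Thrsp (2.18). Smaller were the values of Cyp7a1 (2.08), Pklr (2.06), Cyp4a31 (2.04), Pnpla3 (2.01) and Dbp (1.99). Then came Fos (1.73), Atf3 (1.58), G6pc (1.57), Cyp4a10 (1.5) and Fasn (1.46). Below these lay Ppargc1a (1.03), Tsc22d3 (0.99), Gys2 (0.88), Bnip3 (0.79) and Sqstm1 (0.44). More negative in AAKO were Rad51b (-4.47), Bhlha15 (-4.23), Rnf138rt1 (-4.16), Tnfaip6 (-4.06) and Zfp324 (-3.99). After these stood Hdhd3 (-3.49), Alpk1 (-2.82), Dnajc12 (-2.79), Bdh1 (-2.49) and Apol10b (-2.47). They were followed by Inhbe (-2.33), Creld2 (-2.28), Vnn1 (-2.23), Rnf186 (-2.14) and Sdf2l1 (-1.75). Less negative were Saa4 (-1.59), Hspa5 (-1.01), Acadm (-0.97), Psma1 (-0.93) and Chordc1 (-0.92). Closer to 0 lay Mvd (-0.9), Hspa8 (-0.89), Psmd1 (-0.77), Hadh (-0.73) and Taldo1 (-0.54). The remaining value was that of Sdhc (-0.33).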

How the results depend on the processing

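The AAKO contrast called 14450 genes and stayed between 10969 and 16618 under every alternative run; leaving out 1 array gave 13844 to 14327. The CTRL contrast (8938 genes) gave 8224 to 9188 with 1 array left out and 4520 within wash batch 1, and the genotype difference (7666) gave 6890 to 8664, and 4709 and 3038 within wash batches 1 and 2, which hold fewer arrays. The share of calls higher in fasted livers was 43.2% in AAKO, 32.7% with normexp and 58% by the authors' table. In CTRL it was 48%, 39% with median scaling and 59.8% by the authors' table, and for the genotype difference 41.9%, 51.4% and 54.8%. Samples with the same replicate number did not deviate together (r -0.137 to 0.054, 0 of 6 best with their own number), and a replicate block gave 14350, 8879 and 7535 genes. Reversed differences were those of Alb (-0.20, to 0.10 with quantile normalization and 0.10 in the authors' value table) and Pnpla3 (1.85, to -0.03 with the mean of probes). Over the 97 named genes and all alternatives, 2445 differences kept their side of the threshold, 68 lost the call and 5 gained it. A change of sign where neither fit called the gene was counted as kept, not as reversed. Of genotype differences 3572 kept their side by the same count, 94 lost the call and 19 gained it. The genotype calls of Atf3, Bnip3, Pnpla3, Rnf186, Tsc22d3 and G6pc were each lost when certain single arrays were left out. Calls near background (Cend1, Zfp324, Scin, Tnfaip6) changed in size by more than 1.5 times with the background correction. No cause of these changes was tested.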
